A study of Mus musculus with 4 samples.

Results

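This account is about 10 secreted effector molecules of T cells, read as transcripts: the cytokines Ifng, Il2, Tnf, Il4, Il17a and Csf1 and the chemokines Ccl3, Ccl4, Ccl5 and Xcl1. They are 10 of the 32285 genes in the gene table and were found by symbol, each matching 1 entry. Live T cells had been sorted from draining lymph nodes of mice inoculated with MC38-OVA, a mouse colon carcinoma line that carries the model antigen ovalbumin. Each of 4 groups was 1 single-cell library, made with a droplet kit that reads the 5' ends of polyadenylated transcripts. KO-DOX came from mice with a dendritic-cell-conditional knockout of PD-L1 (gene Cd274) given doxorubicin, an anthracycline chemotherapy drug, and KO-CTRL from such mice with the control treatment. WT-DOX came from mice of the control genotype given doxorubicin, and WT-CTRL from control-genotype mice with the control treatment. All mice of the 4 groups carried tumours. The labels do not state the dose, the time, the age of the mice, the Cre driver or how many mice made up a library, so a library may be 1 mouse or a pool.

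T cells release these proteins after their antigen receptor is engaged. Most of the transcripts are kept low in resting cells by chromatin and by the need for calcium-driven NFAT and other induced factors. RNA-binding proteins also shorten the life of many of them. Interferon gamma and TNF act on tumour and myeloid cells, interleukin 2 feeds T cell growth, and interleukins 4 and 17A are hallmark products of follicular or type 2 helper cells and of type 17 and gamma delta T cells. CCL3, CCL4 and CCL5 recruit effector T cells and myeloid cells, and XCL1 draws the cross-presenting dendritic cells that carry XCR1. CSF1 is the growth factor of macrophages.

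The stretch just before the transcription start is where induced factors meet the basal transcription machinery, and it is shown for 4 members that lie far apart in how many cells held them: Tnf (the most widely detected), Ifng, and Ccl3 and Il17a (the rarest). RefSeq promoters of GRCm38.p6 were on hand for 8 of the 10 members. Each run is the 250 bases before the RefSeq start, on the gene's strand, 5′ to 3′. Capitals mark the NFAT core GGAAA or its reverse complement TTTCC, the AP-1 motif TGANTCA and the TATA box TATAAA. The windows are chr17:35202008-35202257 (minus strand) for Tnf, chr10:118440796-118441045 (plus) for Ifng, chr11:83649379-83649628 (minus) for Ccl3 and chr1:20730655-20730904 (plus) for Il17a.
Tnf: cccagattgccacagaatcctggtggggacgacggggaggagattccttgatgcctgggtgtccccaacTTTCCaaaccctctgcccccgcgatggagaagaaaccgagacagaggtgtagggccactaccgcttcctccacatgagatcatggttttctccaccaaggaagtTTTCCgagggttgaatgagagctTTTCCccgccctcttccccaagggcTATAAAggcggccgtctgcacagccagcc
Ifng: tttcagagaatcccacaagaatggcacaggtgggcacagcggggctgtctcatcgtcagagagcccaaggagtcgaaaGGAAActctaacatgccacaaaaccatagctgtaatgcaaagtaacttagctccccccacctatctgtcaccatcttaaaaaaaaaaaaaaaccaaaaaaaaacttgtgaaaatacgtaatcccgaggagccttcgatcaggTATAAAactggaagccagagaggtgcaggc
Ccl3: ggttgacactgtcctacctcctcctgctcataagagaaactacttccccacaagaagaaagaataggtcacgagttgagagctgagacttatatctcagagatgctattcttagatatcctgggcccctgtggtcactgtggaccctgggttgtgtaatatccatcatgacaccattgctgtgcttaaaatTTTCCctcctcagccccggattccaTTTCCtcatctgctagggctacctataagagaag
Il17a: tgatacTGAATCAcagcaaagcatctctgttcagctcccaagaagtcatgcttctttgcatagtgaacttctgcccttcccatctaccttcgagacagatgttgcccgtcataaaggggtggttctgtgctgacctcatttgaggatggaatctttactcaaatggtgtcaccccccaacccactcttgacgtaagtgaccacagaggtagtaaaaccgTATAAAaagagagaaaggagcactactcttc
The Tnf window held 3 NFAT cores, that of Ccl3 held 2 and that of Ifng held 1, on either strand, while the Il17a window held none of these letters and 1 AP-1 motif. The NFAT core is short and was present in 55.6% of 32851 mouse promoter windows of the same length, the AP-1 motif in 6.75% and TATAAA in 12.4%. TATAAA stood 29, 30 and 31 bases before the start in Tnf, Ifng and Il17a, and those letters were not in the Ccl3 window. The NF-kB motif, present in 0.980% of windows, had no match in any of these 4. These matches are letters in a window and say nothing of binding in these cells. By the GENCODE M21 annotation of GRCm38 all 10 genes are protein-coding. Ccl5 (83525778-83530518), Ccl3 (83647844-83649355) and Ccl4 (83662584-83664683) lie close together on chromosome 11, where Il4 (53602982-53618669) also lies. Il17a (20730905-20734496) and Xcl1 (164931644-164935527) are on chromosome 1, Il2 (37120523-37125959) and Csf1 (107741048-107760469) on chromosome 3, Ifng (118441046-118445892) on chromosome 10 and Tnf (35199381-35202007) on chromosome 17.

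Of 48597 barcodes, 45158 were kept as T cells by marker counts: 9672 in KO-DOX, 12120 in KO-CTRL, 11500 in WT-DOX and 11866 in WT-CTRL. Their medians lay between 3027.5 and 3116.5 UMIs (unique molecular identifiers, 1 for each captured transcript), and their totals between 35584714 and 44349804. The 6 T cell receptor and CD3 markers summed to 3002 to 3084 CPM (UMIs scaled to a common library total) in the 4 libraries. The sums were 7.44 to 10.1 CPM for 6 B cell markers, 34.2 to 37.7 CPM for 4 plasma cell markers and 5.66 to 6.13 CPM for 10 myeloid markers. Of the plasma cell sum, Xbp1, which T cells also express, gave 33.0 to 37.0 CPM. Cells had been chosen by most of these same markers, so the sums do not test the T cell label. Cells are called CD8 here if they held a UMI of Cd8a or Cd8b1 and none of Cd4, and CD4 in the opposite case. CD8 cells were 47.5%, 44.6%, 49.6% and 46.7% of T cells in KO-DOX, KO-CTRL, WT-DOX and WT-CTRL, and cells with neither coreceptor were 32.1% to 33.2%. Cd4 gave only 1.52 to 1.69 UMIs in the cells that showed it, so the cells with neither include CD4 cells that were missed, beside gamma delta and other T cells. Altogether 1283 barcodes occurred in more than 1 library. The knocked-out gene cannot be checked in this sort: the knockout concerns dendritic cells, and T cells held Cd274 at 82.9, 83.7, 65.7 and 67.4 CPM in KO-DOX, KO-CTRL, WT-DOX and WT-CTRL.

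The 10 transcripts spanned a wide range. Over all T cells Ccl5 had 194.9 CPM and ranked 679th of 21752 genes with a UMI, followed by Tnf at 37.3, Xcl1 at 19.1, Ifng at 18.1 and Ccl4 at 14.3 CPM. Il2 stood at 5.60, Il4 at 4.58, Csf1 at 3.89, Il17a at 3.87 and Ccl3 at 1.75 CPM, the last ranked 10605th. In a 5' library a transcript gives its UMIs at 1 end whatever its length, so these levels are compared per transcript. Xcl1 and Ifng changed places between libraries, as did the members from Il2 downwards. At least 1 UMI of any member was present in 19.1%, 19.0%, 19.7% and 17.7% of T cells in KO-DOX, KO-CTRL, WT-DOX and WT-CTRL, and 3 or more members in 1.32%, 1.75%, 1.30% and 1.54%. The fullest cell of each library held 6 of the 10.

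**Figure D1:**
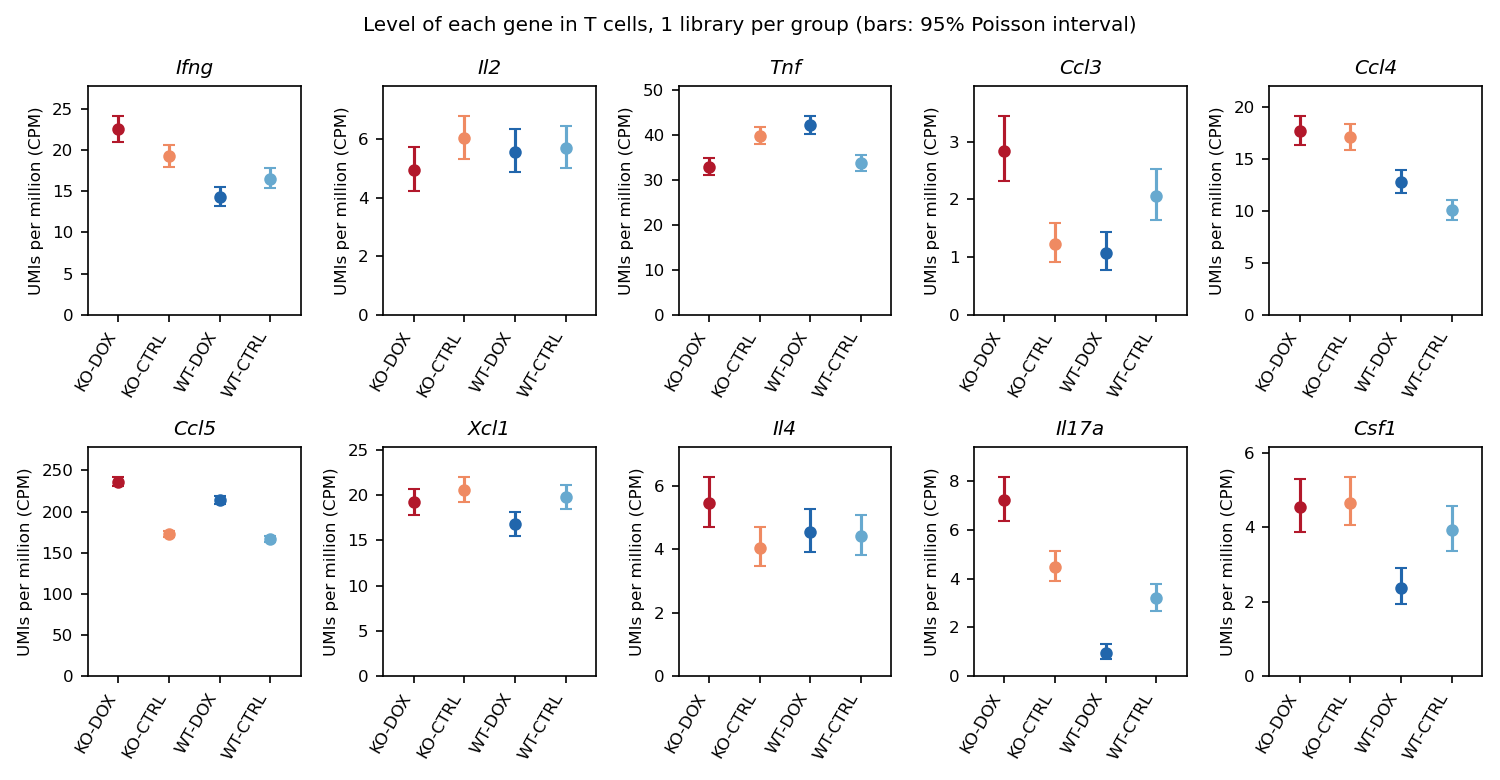
CPM of each gene summed over the T cells of each library, with KO-DOX, KO-CTRL, WT-DOX and WT-CTRL from left to right and bars for the exact 95% Poisson interval. Il17a shows the widest spread (7.22 CPM in KO-DOX against 0.967 CPM in WT-DOX), while Il2 (4.95 to 6.04 CPM) and Xcl1 (16.8 to 20.6 CPM) stay close.

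Most of these levels rested on few cells. Tnf was the broad one: 8.77%, 10.3%, 10.99% and 9.07% of T cells held it in KO-DOX, KO-CTRL, WT-DOX and WT-CTRL, at 1.35 to 1.41 UMIs in a positive cell, and its 10 highest cells held 3.70% to 5.12% of its UMIs. Ccl5 was both broad and abundant, in 6.68%, 6.13%, 7.07% and 6.11% of T cells, at 13.03, 10.3, 10.6 and 10.1 UMIs in a positive cell. Il17a was at the other end, in 22, 13, 14 and 17 cells of KO-DOX, KO-CTRL, WT-DOX and WT-CTRL, and 10 cells held 89.7% to 98.5% of its UMIs. Ccl3 was in 26, 28, 23 and 34 cells, and 10 of them held 64.8% to 83.2%. The members between these, Ifng, Il2, Ccl4, Xcl1, Il4 and Csf1, were found in 0.591% to 2.79% of T cells, with 17.2% to 52.9% of UMIs in 10 cells. Counting intervals treat each UMI as independent, whereas 1 cell can hold a large part of them, so each comparison was also made without the highest cell of the gene in each library. Among 180 B-like cells (median 2251 UMIs), which should lack most of these transcripts, Ifng, Il2, Ccl5, Il4 and Il17a had 0 positive cells, which allows a share of up to 1.67% by 3 counts and 2.03% by the exact 95% interval. Tnf and Ccl4, which B cells can make, were each in 3 of them, Csf1 in 2, and Ccl3 and Xcl1 each in 1.

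**Figure D2:**
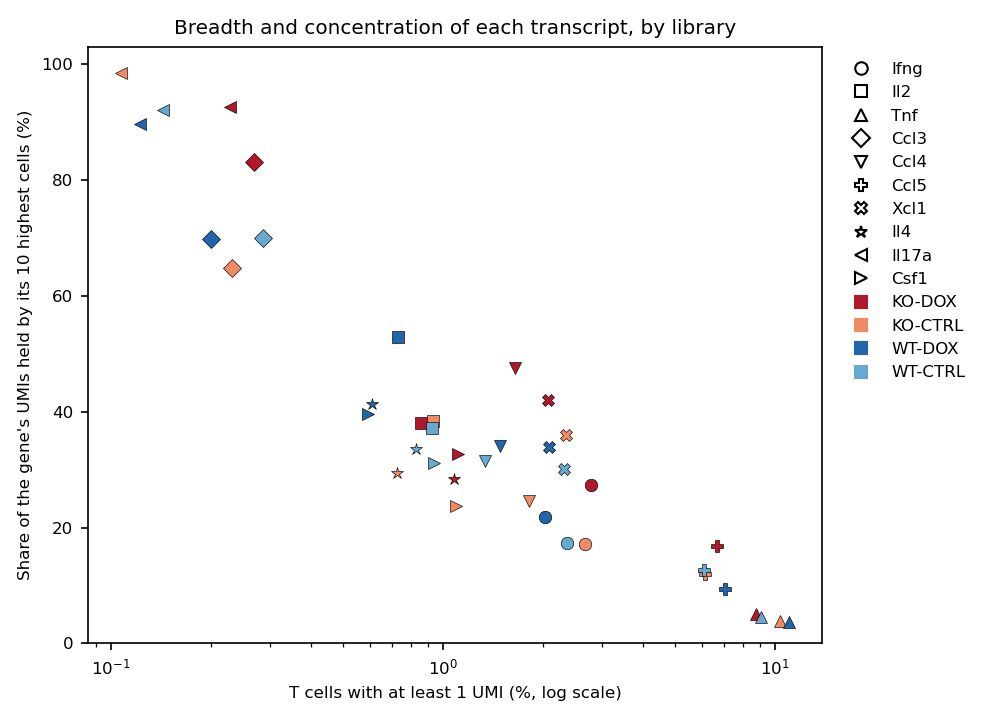
Each point is 1 gene in 1 library: the share of T cells with at least 1 UMI (x axis, log scale) against the share of that gene's UMIs held by its 10 highest cells (y axis). Tnf and Ccl5 lie at the lower right, and Il17a and Ccl3 at the upper left, in all 4 libraries.

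Ifng, the type 1 effector cytokine, was highest in the knockout library with doxorubicin. It stood at 22.6, 19.3, 14.3 and 16.5 CPM in KO-DOX, KO-CTRL, WT-DOX and WT-CTRL, with 270, 324, 233 and 279 positive cells at 2.98, 2.64, 2.48 and 2.60 UMIs each. KO-DOX against WT-DOX was a ratio of 1.58 (exact 95% interval 1.41 to 1.76), and the positive share was 2.79% in KO-DOX against 2.03% in WT-DOX. That difference lay mostly outside the CD8 cells: in cells that were CD4 or had neither coreceptor, Ifng was 23.5 CPM in KO-DOX and 10.9 CPM in WT-DOX, a ratio of 2.15 (1.79 to 2.58), and among CD8 cells 21.5 and 16.4 CPM, a ratio of 1.31 (1.14 to 1.51). Without the highest cell the ratio among CD8 cells no longer passed the rule of size given below, while that outside them did. The highest cell of KO-DOX held 55 of its 804 Ifng UMIs and the next held 49, and this check leaves out only the highest. In KO-CTRL, WT-DOX and WT-CTRL the highest cell held 21, 22 and 19. WT-DOX against WT-CTRL also split by class, at 10.9 and 16.9 CPM outside CD8 cells (ratio 0.646, 0.535 to 0.777) and 16.4 and 15.8 CPM among CD8 cells. CD8 cells were 76.4% of the Ifng-positive cells with 1 coreceptor in WT-DOX, against 65.5% in KO-DOX, 65.8% in KO-CTRL and 65.2% in WT-CTRL, with overlapping intervals (69.5% to 82.3% in WT-DOX and 58.5% to 71.4% in WT-CTRL). WT-DOX also had the largest CD8 and the smallest CD4 share of all T cells, at 49.6% and 15.5%. The part of that was not tested. At an equal depth of 1500 UMIs a cell, the positive shares were 1.31%, 1.26%, 1.16% and 1.11% in KO-DOX, KO-CTRL, WT-DOX and WT-CTRL, and all their intervals overlapped.

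Il2, the T cell growth factor, passed in no comparison over all T cells, except that with equal weights for coreceptor classes it was higher in WT-DOX than in WT-CTRL (log2 fold 0.47). Its level was 4.95, 6.04, 5.58 and 5.70 CPM in KO-DOX, KO-CTRL, WT-DOX and WT-CTRL, from 83, 113, 84 and 110 positive cells. CD4 cells outnumbered CD8 cells among the producers in each library, 185 to 92 in the 4 together, and 2.31% of CD4 cells were positive against 0.433% of CD8 cells. In cells outside the CD8 class that showed at least 3 of 6 memory or activation transcripts (Cd44, Cxcr3, Il2rb, Itgb1, S100a4 and S100a6, called antigen-experienced from here on), Il2 was 13.3 CPM in KO-DOX against 37.5 CPM in KO-CTRL, and 46.5 CPM in WT-DOX against 41.7 CPM in WT-CTRL. KO-DOX lay below the others there, with an interval of 9.58 to 18.1 CPM against 31.7 to 43.9 CPM in KO-CTRL. In WT-DOX 1 cell held 39 of the 225 Il2 UMIs of the library.

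Tnf, an inflammatory cytokine, was lower in KO-DOX than in WT-DOX, where Ifng was higher. It had 32.9, 39.8, 42.2 and 33.8 CPM in KO-DOX, KO-CTRL, WT-DOX and WT-CTRL, so that the highest library was WT-DOX, and KO-DOX over WT-DOX was 0.779 (0.723 to 0.840). With equal weights for coreceptor classes that difference no longer passed (log2 fold -0.18). CD8 cells had 25.5 CPM in KO-DOX against 36.6 CPM in WT-DOX (ratio 0.699, 0.623 to 0.783), and WT-DOX exceeded WT-CTRL there at 36.6 against 27.1 CPM (1.35, 1.21 to 1.504). The shares of CD8 cells with Tnf were 7.93%, 9.13%, 11.02% and 8.23% in KO-DOX, KO-CTRL, WT-DOX and WT-CTRL. No single cell mattered here, since the highest held 8 to 13 UMIs. At 1500 UMIs a cell the shares of all T cells kept that order, at 3.97%, 4.93%, 5.45% and 4.19%.

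Ccl5, the abundant chemokine of memory and effector T cells, was higher with doxorubicin in both genotypes. Its level was 237 CPM in KO-DOX against 172 CPM in KO-CTRL (ratio 1.37, 1.33 to 1.42), and 214 CPM in WT-DOX against 166 CPM in WT-CTRL (1.29, 1.25 to 1.33). The share of positive cells moved less: 6.68% in KO-DOX against 6.13% in KO-CTRL, with a share ratio of 1.09 (0.984 to 1.21), and 7.07% in WT-DOX against 6.11% in WT-CTRL, with a share ratio of 1.16 (1.05 to 1.27). The level with doxorubicin was above that with the control treatment in both classes of both genotypes, by different amounts. It passed the rule of size given below only among CD8 cells of the control genotype and outside CD8 cells of the knockout. The log2 fold was 0.19 among CD8 cells of the knockout and 0.18 outside CD8 cells of the control genotype. WT-DOX had 222 CPM against 168 CPM in WT-CTRL among CD8 cells (ratio 1.32, 1.26 to 1.38) and 204 against 180 CPM outside them (1.13, 1.08 to 1.19). KO-DOX had 249 CPM against 219 CPM in KO-CTRL among CD8 cells (1.14, 1.09 to 1.18) and 216 against 130 CPM outside them (1.66, 1.58 to 1.75). With no gate on T, B or myeloid markers Ccl5 no longer passed in KO-DOX against KO-CTRL, at a log2 fold of 0.29. The barcodes with few T cell markers that the gate removed held Ccl5 at 769 CPM in KO-DOX against 1968 CPM in KO-CTRL. Among CD8 cells KO-CTRL too was above WT-CTRL, at 219 against 168 CPM.

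Cells with neither coreceptor carried much of the Ccl5. They held it at 378, 236, 331 and 321 CPM in KO-DOX, KO-CTRL, WT-DOX and WT-CTRL, more than CD8 cells did, although only 4.64% to 5.45% of them were positive against 8.75% to 9.83% of CD8 cells. Of their 736 Ccl5-positive cells 80.3% had a UMI of Cd3e, 14.9% of Trdc (the delta chain constant region), 9.92% of Klrb1c and 1.49% of Ncr1, the last pair being markers of natural killer and NKT cells. Cells with Trdc and no coreceptor, 81, 105, 85 and 101 in number, had Ccl5 at 2438, 1167, 1874 and 1399 CPM in KO-DOX, KO-CTRL, WT-DOX and WT-CTRL. Summed over all T cells, the 5 natural killer and NKT markers stood at 122, 112, 121 and 121 CPM in those libraries, with none at 0. Klrd1 alone gave 97.4, 86.7, 99.8 and 97.4 CPM of this, and Ncr1 only 0.0562, 0.0451, 0.248 and 0.0684 CPM. The sum is thus mostly 1 gene, and the part of natural killer and NKT cells in the Ccl5 levels was not tested.

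Ccl4, a chemokine made on activation, was higher in both knockout libraries. It had 17.7, 17.1, 12.8 and 10.1 CPM in KO-DOX, KO-CTRL, WT-DOX and WT-CTRL, from 159, 220, 170 and 158 positive cells. KO-CTRL over WT-CTRL was 1.70 (1.51 to 1.91), and in CD8 cells 29.6 against 16.6 CPM (1.78, 1.57 to 2.03), where 3.39% of CD8 cells in KO-CTRL and 2.31% in WT-CTRL were positive. This held without the highest cell. KO-DOX over WT-DOX was 1.39 (1.23 to 1.56), but 1 CD4 cell of KO-DOX held 105 of its 630 UMIs, the next highest cell holding 32, and without the highest cells the log2 fold was 0.30 and no longer passed. That same cell held Tnf, Ccl3, Ccl5 and Csf1, and shared the highest Csf1 count of its library, 9 UMIs. Among CD8 cells KO-DOX was below KO-CTRL, at 21.3 against 29.6 CPM (0.718, 0.632 to 0.815).

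Ccl3, the close relative of Ccl4 on chromosome 11, was the least abundant member and followed single cells. It stood at 2.84, 1.22, 1.07 and 2.05 CPM in KO-DOX, KO-CTRL, WT-DOX and WT-CTRL, or 101, 54, 43 and 90 UMIs. The highest cell held 33, 5, 7 and 25 of these. Positive shares were 0.269%, 0.231%, 0.200% and 0.287%, and their intervals all overlapped (0.127% to 0.300% in WT-DOX, 0.199% to 0.400% in WT-CTRL). The lower level in WT-DOX than in WT-CTRL (ratio 0.520, 0.353 to 0.756) and in KO-CTRL than in WT-CTRL (0.594, 0.416 to 0.841) no longer passed without the highest cells. The higher level in KO-DOX than in KO-CTRL (2.33, 1.66 to 3.31) and than in WT-DOX (2.66, 1.85 to 3.90) still passed without those cells. With equal weight for each cell neither of these passed. With equal weights for coreceptor classes KO-DOX against WT-DOX did not pass either.

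Xcl1, the dendritic cell attractant, differed little over all T cells. Its level was 19.2, 20.6, 16.8 and 19.8 CPM in KO-DOX, KO-CTRL, WT-DOX and WT-CTRL, and no comparison passed. Within classes it did. CD8 cells had 34.1 CPM in KO-CTRL against 23.0 CPM in WT-CTRL (1.48, 1.32 to 1.66), although a single CD8 cell of KO-CTRL held 119 UMIs. Among CD8 cells KO-DOX was at 26.8 CPM against 34.1 CPM in KO-CTRL (0.785, 0.699 to 0.880), with 2.83% and 4.02% of cells positive. Outside CD8 cells WT-CTRL was the high library, at 17.3 CPM against 8.89, 8.09 and 7.53 CPM in KO-DOX, KO-CTRL and WT-DOX, and 1 of its CD4 cells held 69 UMIs. Each of these Xcl1 differences by class stayed past the rule without the highest cell.

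Il4, the type 2 and follicular helper cytokine, was the purest CD4 product. It had 5.45, 4.06, 4.56 and 4.42 CPM in KO-DOX, KO-CTRL, WT-DOX and WT-CTRL, from 104, 88, 70 and 98 positive cells. KO-DOX over KO-CTRL was 1.34 (1.09 to 1.65), and the positive share was 1.08% in KO-DOX against 0.726% in KO-CTRL, a share ratio of 1.48 (1.12 to 1.965). Without the highest cells the level no longer passed, at a log2 fold of 0.33 with overlapping intervals. Of 265 positive cells with 1 coreceptor, 252 were CD4 and 13 CD8. Cells with at least 2 of 6 follicular helper transcripts (Cxcr5, Pdcd1, Il21, Tox2, Sostdc1 and Bcl6) and neither CD8 nor Foxp3 UMIs held 68.3%, 61.4%, 55.7% and 67.3% of the positive cells of KO-DOX, KO-CTRL, WT-DOX and WT-CTRL. Those cells were themselves 3.59%, 2.59%, 1.72% and 2.12% of T cells. Within them Il4 was at 80.3 CPM in KO-DOX against 57.2 CPM in KO-CTRL, with intervals of 68.0 to 94.1 and 47.3 to 68.4.

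Il17a, the type 17 cytokine, came from a handful of cells in each library. It stood at 7.22, 4.49, 0.967 and 3.19 CPM in KO-DOX, KO-CTRL, WT-DOX and WT-CTRL, or 257, 199, 39 and 140 UMIs, and the highest cells held 84, 75, 10 and 44. Cells with Trdc and no coreceptor gave 6 of the 13 positive cells in KO-CTRL, 6 of 14 in WT-DOX and 6 of 17 in WT-CTRL, with 119, 19 and 105 UMIs. In KO-DOX 0 of 81 such cells were positive, which allows a share of up to 3.70% by 3 counts and 4.45% by the exact 95% interval. The other 3 libraries had 5.71% to 7.06%, with intervals that reach down to 2.13%, 2.63% and 2.21% in KO-CTRL, WT-DOX and WT-CTRL, so all of them overlap that of KO-DOX. In that library 8 of its 22 positive cells were CD4, with 113 UMIs, against 1, 2 and 1 CD4 cells in KO-CTRL, WT-DOX and WT-CTRL. KO-DOX over WT-DOX was 7.47 (5.32 to 10.7), and still passed without the highest cells, yet the share ratio was 1.87 with an interval of 0.957 to 3.65. Transcripts of the type 17 programme kept company with it: Il23r was in 12, 6, 7 and 10 of the positive cells, and Ccr6 in 10, 4, 8 and 6.

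Csf1, the macrophage growth factor, was low in WT-DOX. It had 4.55, 4.67, 2.38 and 3.94 CPM in KO-DOX, KO-CTRL, WT-DOX and WT-CTRL, from 107, 132, 68 and 111 positive cells. WT-DOX over WT-CTRL was 0.604 (0.466 to 0.779) with a share ratio of 0.632 (0.468 to 0.854), and KO-DOX over WT-DOX was 1.91 (1.48 to 2.49) with a share ratio of 1.87 (1.38 to 2.53). Both passed without the highest cell, as they did outside CD8 cells. WT-DOX against WT-CTRL no longer passed with equal weights for coreceptor classes (log2 fold -0.54) or with equal weight for each cell (-0.37). Its producers were more often CD4 (194 cells) than CD8 (101 cells).

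With 1 library a group no test between groups exists. A gene was therefore called higher or lower where the log2 fold of CPM plus 1 was at least 0.32 and the exact 95% Poisson intervals did not overlap, and the same rule was run on all genes with a mean of at least 1 CPM. The 4 comparisons share libraries, so they are not independent of each other. In WT-DOX against WT-CTRL 4 of 10 members passed, against 4.78% of 11406 genes: Ccl5 was higher (log2 fold 0.36), with 0.842% of genes higher, and Ccl3, Il17a and Csf1 were lower (-0.56, -1.09 and -0.55), with 3.94% lower. The median log2 fold was -0.11 over the members and -0.02 over all genes. In KO-DOX against KO-CTRL 4 passed, all higher, against 2.19% of 11390 genes (1.13% higher and 1.06% lower): Ccl3 (0.79), Ccl5 (0.45), Il4 (0.35) and Il17a (0.58). The medians there were 0.13 over the members and 0.01 over all genes. In KO-CTRL against WT-CTRL 3 passed, against 2.88% of 11415 genes (1.63% higher and 1.25% lower): Ccl4 (0.71) and Il17a (0.39) were higher and Ccl3 (-0.46) was lower, with medians of 0.13 and -0.003. In KO-DOX against WT-DOX 6 passed, against 5.78% of 11376 genes (4.65% higher and 1.13% lower): Ifng (0.62), Ccl3 (0.89), Ccl4 (0.44), Il17a (2.06) and Csf1 (0.72) were higher and Tnf (-0.35) was lower, with medians of 0.33 and 0.02. The count lay above the background share in each comparison, but the members were chosen with earlier results of these data known.

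Among CD8 cells 8 members were abundant enough to be compared. WT-DOX against WT-CTRL had Tnf (0.42) and Ccl5 (0.40) higher and Ccl3 (-0.94) lower, with 4.84% of genes called (0.734% higher and 4.11% lower). KO-DOX against KO-CTRL had Ccl3 (0.95) higher and Ccl4 (-0.46) and Xcl1 (-0.34) lower, with 1.82% called (0.708% higher and 1.11% lower), and Ccl3 no longer passed without its highest cell. KO-CTRL against WT-CTRL had Ifng (0.33), Ccl4 (0.80), Ccl5 (0.38) and Xcl1 (0.55) higher, with 2.71% called (1.62% higher and 1.09% lower). KO-DOX against WT-DOX had Ifng (0.37) and Ccl3 (1.37) higher and Tnf (-0.50) lower, with 4.98% called (3.81% higher and 1.18% lower).

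Outside the CD8 cells 9 members could be compared. WT-DOX against WT-CTRL had Ifng (-0.59), Xcl1 (-1.10), Il17a (-1.06) and Csf1 (-0.62) lower and none higher, with 3.62% of genes called (1.12% higher and 2.51% lower). KO-DOX against KO-CTRL had Ifng (0.43), Ccl4 (1.26), Ccl5 (0.73) and Il4 (0.58) higher and none lower, with 2.47% called (1.68% higher and 0.790% lower). Without the highest cells Ifng (0.24) and Ccl4 (0.45) no longer passed in that comparison. KO-CTRL against WT-CTRL had Il17a (0.60) higher and Ccl5 (-0.46) and Xcl1 (-1.01) lower, with 3.04% called (1.82% higher and 1.23% lower). KO-DOX against WT-DOX had Ifng (1.04), Ccl4 (1.40), Il17a (1.89) and Csf1 (0.84) higher, with 5.41% called (4.26% higher and 1.16% lower). The Ccl4 value rests largely on 1 CD4 cell of KO-DOX, which held 105 of the 192 Ccl4 UMIs outside CD8 cells in that library.

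**Figure D3:**
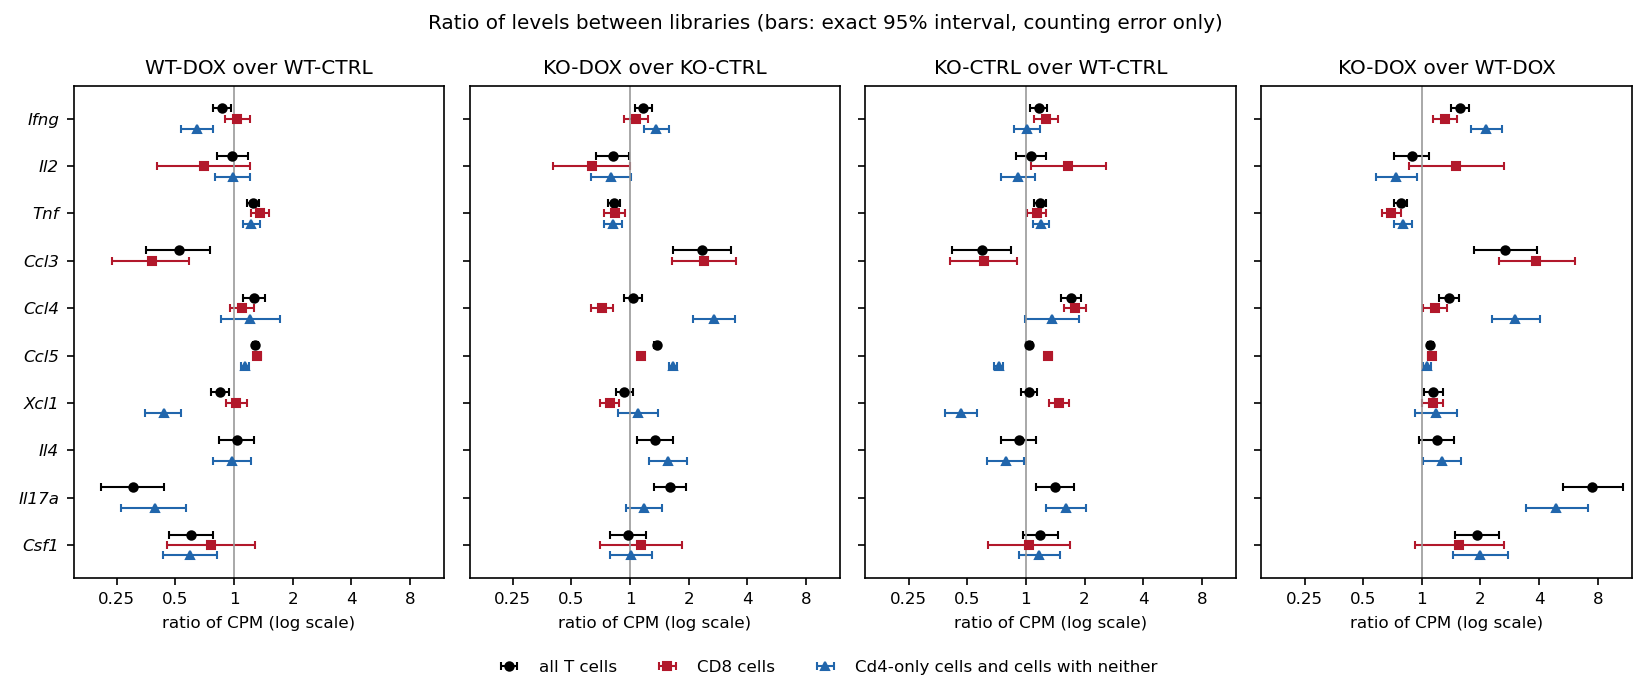
Ratio of CPM between 2 libraries for each gene (x axis, log scale), in all T cells, in CD8 cells and in cells that were CD4 or had neither coreceptor, with exact 95% intervals for counting error. Genes under a mean of 1 CPM in a class are left out, and Xcl1 and Ifng show how classes differed within WT-DOX over WT-CTRL.

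The producers differed by coreceptor. Ccl4, Xcl1, Ccl3 and Ccl5 were CD8 products: of positive cells with 1 coreceptor, 96.1%, 96.4%, 93.3% and 92.5% were CD8, with a lowest library value of 88.2% for Ccl3 in WT-DOX. Ifng (67.8%) and Tnf (63.1%) were made in both, in libraries that held 21246 CD8 and 8015 CD4 cells together. By class, Ifng was in 2.77% of CD8 and 3.49% of CD4 cells, and Tnf in 9.14% of CD8 and 14.2% of CD4 cells. Csf1 (34.2%), Il2 (33.2%) and Il4 (4.91%) leaned to CD4 cells. Il17a could not be placed: 41 of its 66 positive cells had neither coreceptor, and 9 were CD8 and 12 CD4 (42.9% CD8, 21.8% to 66.0%). Ccl4 was in 2.64% of CD8 and 0.287% of CD4 cells, and Il4 in 0.0612% of CD8 and 3.14% of CD4 cells. The median depths of the classes in the libraries lay at 3399 to 3480 UMIs for CD8 and 2995 to 3196 UMIs for CD4 cells. WT-DOX had the highest CD8 share of Tnf producers, at 70.2% (67.1% to 73.2%), against 63.1% in KO-DOX, 58% in KO-CTRL and 60.3% (56.7% to 63.8%) in WT-CTRL. It was also the library with the largest CD8 share of T cells, and the part of that was not tested.

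**Figure D4:**
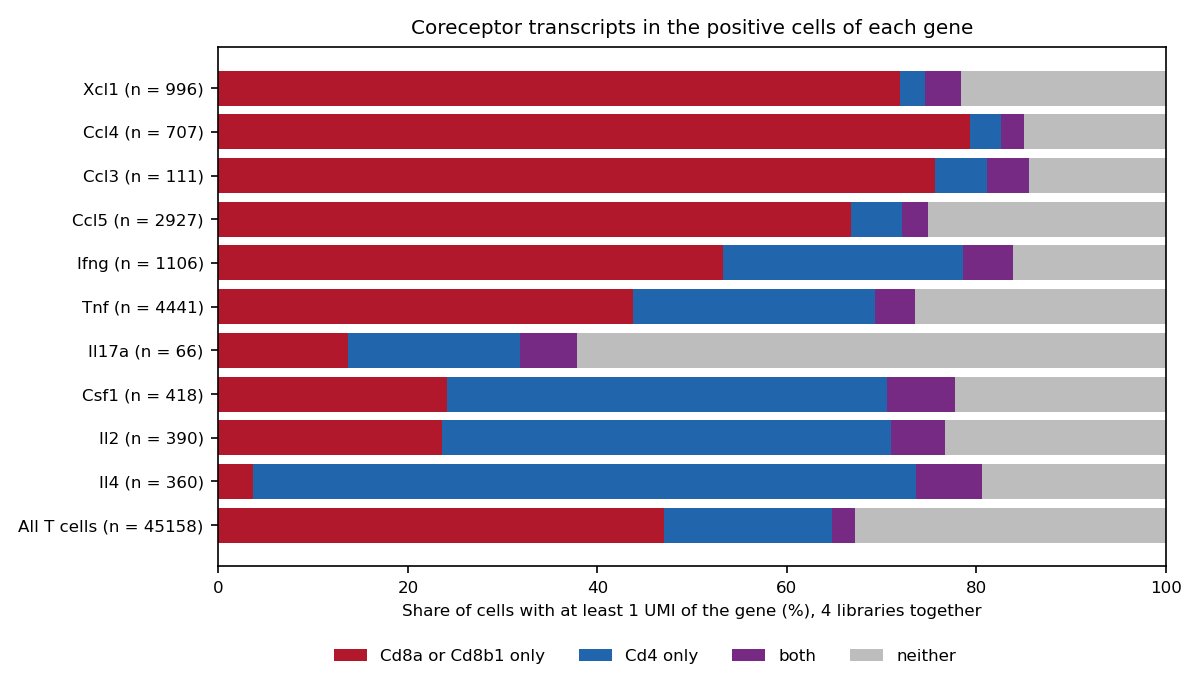
Coreceptor transcripts in the cells positive for each gene, as shares of the positive cells of the 4 libraries together, with all T cells in the lowest bar. Ccl3, Ccl4, Ccl5 and Xcl1 are mostly red (CD8), Il4 mostly blue (CD4), and Il17a mostly grey (neither).

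Antigen-experienced cells were a small part of each library and a large part of the producers. They were 8.41%, 7.23%, 6.06% and 6.55% of T cells in KO-DOX, KO-CTRL, WT-DOX and WT-CTRL, and held 65.9%, 59.6%, 53.2% and 56.6% of the Ifng-positive cells and 72.7%, 69.2%, 85.7% and 94.1% of the Il17a-positive ones. Fewer of the Ccl5-positive cells (24.7% to 29.7%) and Tnf-positive cells (16.2% to 24.2%) were in that gate. The gate counts detected genes, and its cells were deeper, with medians of 5257 to 5947 UMIs. Within antigen-experienced CD8 cells the libraries were close for Ifng, at 104.7, 96.1, 99.5 and 91.1 CPM, whereas outside CD8 cells the same gate had 82.7, 58.3, 43.7 and 59.3 CPM in KO-DOX, KO-CTRL, WT-DOX and WT-CTRL. Ccl5 in antigen-experienced CD8 cells was highest in WT-DOX, at 886 CPM against 519 CPM in WT-CTRL, and 599 CPM in KO-DOX against 642 CPM in KO-CTRL. Ccl4 in that gate was highest in KO-CTRL, at 113 CPM against 59.97 CPM in WT-CTRL. Cycling cells held 30.4% to 39.3% of the Ccl3-positive and 18.5% to 33.3% of the Ifng-positive cells, and had medians of 14092 to 15669 UMIs.

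Because a deep cell shows more genes, co-detection was counted with every cell thinned to 1500 UMIs, which kept 42000 cells, an alternative chosen after seeing the data. The 4 chemokines were found together. Of 36 Ccl3-positive cells 47.2% also held Ccl4, against 0.843% of all T cells, and 55.6% held Ccl5. Ccl5 was in 57.2% of 437 Xcl1-positive and 50.8% of 354 Ccl4-positive cells, against 4.72% of all T cells, but because Ccl5 was so much commoner only 12.6% and 9.07% of its 1984 positive cells held Xcl1 and Ccl4. Ifng-positive cells, 491 in all, held Ccl5 in 26.7%, Tnf in 13.03% and Xcl1 in 9.98%. Tnf was not more frequent in Ccl5-positive cells (4.64%) than in all T cells (4.93%). Il4-positive cells held Tnf in 13.9% and no chemokine in more than 1.21%. None of the 40 Il17a-positive cells held Ifng or any of the 4 chemokines, with an exact 95% interval of 0% to 8.81% for each, and 22.5% (10.8% to 38.5%) held Tnf.

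**Figure D5:**
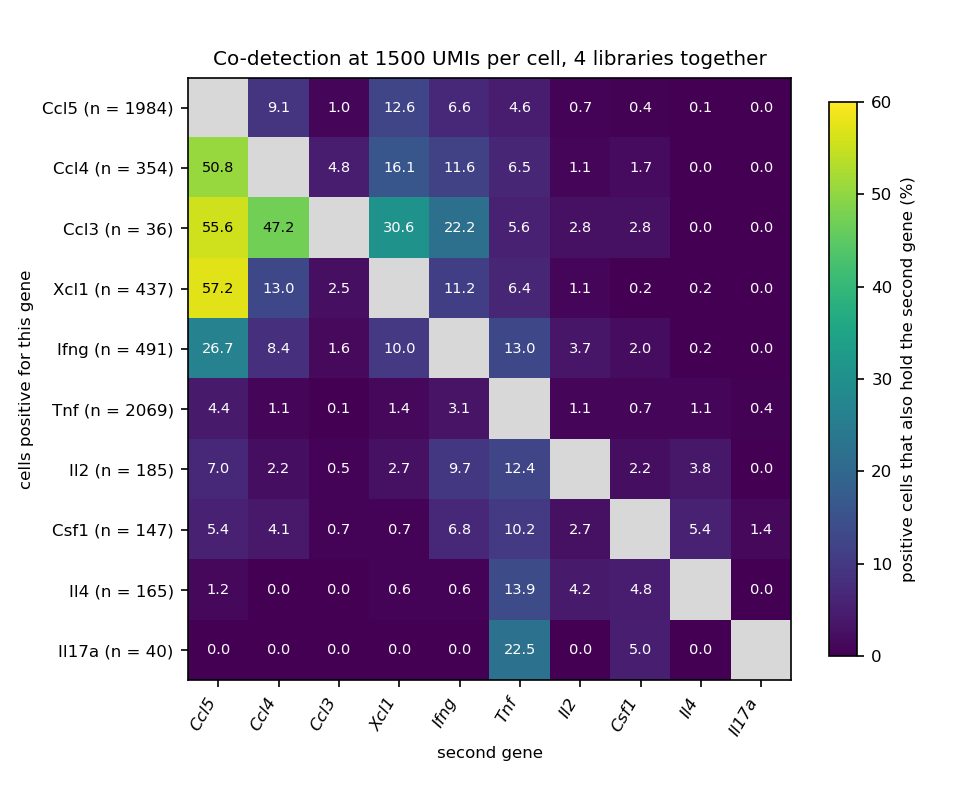
Share of the cells positive for the gene in the row that also held the gene in the column, in percent, with each cell thinned to 1500 UMIs and the 4 libraries together. The block of high values at the upper left joins Ccl5, Ccl4, Ccl3 and Xcl1, and the row of Il17a is 0.0 except for Tnf and Csf1.

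Genes that set producers apart from other cells of the same class differed by member, and are given at equal depth as the mean over libraries of the log2 ratio of CPM plus 10 between positive and negative cells. Ifng-positive CD8 cells led with Ifitm1 (4.72), the granzyme gene Gzma (4.37) and the effector-memory transcripts S100a6 (4.13), Lgals3 (3.95) and S100a4 (3.67). Ccl4-positive CD8 cells led with Gzma (4.51), Ifitm1 (4.38), Ccl5 (3.74), S100a6 (3.67) and Lgals3 (3.23). Ccl5-positive CD8 cells were milder, led by Ifitm1 (2.92), S100a6 (2.86), Ccl4 (2.86), Ctla2a (2.81) and the granzyme gene Gzmm (2.62). Xcl1-positive CD8 cells led with Ccl5 (3.16), the activation receptor gene Tnfrsf9 (2.77), Ctla2a (2.77), Ccl4 (2.62) and the killer-receptor gene Klra7 (2.61).

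Outside CD8 cells the companions were of other kinds. Il4-positive cells led with the follicular helper transcripts Sostdc1 (3.79), Tox2 (3.57) and Il21 (3.20), ahead of Eea1 (3.18) and Tnfsf8 (3.13), and the first 3 of these also served in the follicular gate above. Il2-positive cells led with Bhlhe40 (3.13), a transcription factor that favours cytokine production, the TNF-family ligand genes Tnfsf8 (3.07) and Tnfsf11 (2.84), Cd200 (2.83) and the survival gene Bcl2a1b (2.77). Csf1-positive cells led with Gzmb (3.70, between 1.04 and 4.95 in the libraries), Il10 (3.05), Sostdc1 (3.04), Itgb8 (2.88), which activates TGF beta, and the inhibitory receptor gene Tigit (2.81). Tnf-positive cells had smaller ratios, with Il17a (1.74, between 0.32 and 3.52 in the libraries, with 9 T cells of any class holding both), Gadd45b (1.27), Fosb (1.20), S100a4 (1.12) and Ahnak (1.11). Without equal depth 4 of the 5 leading genes of Tnf-positive cells were histone genes, led by Hist1h1b (2.36), and those of Xcl1-positive cells were Ctla2a (2.37), Ccl5 (2.26), Stmn1 (2.25), Pclaf (2.25) and Hist1h2ae (2.23).

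Other cytokines were counted over a fixed list of 29. In KO-DOX against KO-CTRL 5 of 21 tested were higher and none lower, led by Il22 (4.07 against 0.383 CPM), which acts on epithelia, the regulatory cytokine Il10 (7.08 against 3.27 CPM) and Csf2 (1.69 against 0.496 CPM). In KO-DOX against WT-DOX 6 of 18 were higher and none lower, led by Il22 (4.07 against 1.34 CPM), the follicular helper cytokine Il21 (13.4 against 7.29 CPM) and the tissue-repair factor Areg (49.7 against 29.7 CPM). In WT-DOX against WT-CTRL 1 of 18 was higher, Tnfsf4 (2.73 against 1.57 CPM), and 4 were lower, led by Il10 (4.09 against 6.29 CPM), Cd40lg (54.1 against 70.6 CPM), the ligand that licenses dendritic and B cells, and Il21 (7.29 against 9.50 CPM). In KO-CTRL against WT-CTRL Il10 alone of 19 passed, and was lower (3.27 against 6.29 CPM). Il22 rested on few cells, being in 15, 6, 7 and 8 T cells of KO-DOX, KO-CTRL, WT-DOX and WT-CTRL. It was not compared without its highest cell. The list medians were 0.15, 0.13, -0.02 and 0.01 log2 units in that order of comparisons.

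The remaining lists moved little. Of other chemokines, 1 of 6 passed in WT-DOX against WT-CTRL (Cxcl2, 5.16 against 3.81 CPM), 0 of 5 in KO-DOX against KO-CTRL, 1 of 6 in KO-CTRL against WT-CTRL (Ccl1, 0.474 against 2.19 CPM) and 2 of 6 in KO-DOX against WT-DOX (Cxcl10 higher at 29.1 against 22.1 CPM, and Ccl25 lower at 8.35 against 10.9 CPM). Among the receptors for the members, Il2ra, the high-affinity interleukin 2 receptor chain, was lower in WT-DOX than in WT-CTRL (31.9 against 41.5 CPM). Of 24 tested transcription factors and RNA-binding regulators, WT-DOX against WT-CTRL had Zfp36l2 higher (721 against 535 CPM) and Maf (30.7 against 47.6 CPM), Rc3h1 (108 against 142 CPM) and Bhlhe40 (55.8 against 71.0 CPM) lower. KO-DOX against WT-DOX had Maf (52.0 against 30.7 CPM) and Bhlhe40 (89.0 against 55.8 CPM) higher and Zfp36, whose protein speeds the decay of Tnf message, lower (397 against 551 CPM). Zfp36l2 was the 1 regulator higher in KO-CTRL than in WT-CTRL (675 against 535 CPM), and none passed in KO-DOX against KO-CTRL.

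Transcripts that interferon gamma, interleukin 2 or TNF induce were a list of 22, with 19 tested. KO-DOX against WT-DOX had 4 higher and none lower, led by Socs2 (6.94 against 5.01 CPM), Cxcl10 and the guanylate-binding protein gene Gbp2 (67.4 against 51.8 CPM). KO-CTRL against WT-CTRL had 3 higher and none lower, among them Gbp2 (66.2 against 52.1 CPM) and the feedback inhibitor Socs1 (95.3 against 75.5 CPM). WT-DOX against WT-CTRL had Socs1 (99.9 against 75.5 CPM) and the survival gene Bcl2 (173 against 131 CPM) higher and Socs2 (5.01 against 7.07 CPM) and Il2ra lower. None passed in KO-DOX against KO-CTRL. Cells with at least 3 of 6 type I interferon transcripts, which share targets with interferon gamma, were 2.03%, 4.57%, 1.08% and 1.69% of T cells in KO-DOX, KO-CTRL, WT-DOX and WT-CTRL, and their part in these counts was not tested.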

How the data were processed

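Single-cell 5' libraries of sorted T cells were deposited by the authors as raw UMI count matrices, 1 per group, made against mm10 per the submitters' processing notes. The labels name no aligner. Gene positions came from GENCODE M21. Barcodes were kept with at least 300 genes, at most 10% mitochondrial UMIs, a Scrublet (scanpy 1.11.5) score of at most 0.25 (1073 doublets removed), at least 2 UMIs over 6 T cell markers and at most 2 over B, plasma and myeloid markers. UMIs were summed per library and class and scaled to CPM, with exact 95% Poisson and Clopper-Pearson intervals (scipy 1.17.1), which cover counting error only. There were no replicates, so no test was made, and genes were called by the rule of size given above. All 10 members were named, and leading companion genes were the 5 with the largest mean ratio among genes of at least 50 CPM, for members with at least 15 positive cells in every library. Members and gene lists were chosen with earlier results of these data known. The scripts were tested on simulated data. Alternatives covered scaling, pseudocount, filters, doublets, shared barcodes, coreceptor classes and the highest cell. Equal-depth thinning of leading genes and the highest cell by class were chosen after seeing the data. Some results are not reported here.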

Additional observations from a re-analysis of the deposited data

Results flagged for a closer look

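Ifng, Tnf, Ccl3 and Il17a had log2 folds of opposite sign with doxorubicin in the 2 genotypes. For Ifng it was 0.22 in KO-DOX against KO-CTRL and -0.19 in WT-DOX against WT-CTRL. For Tnf it was -0.27 in KO-DOX against KO-CTRL and 0.31 in WT-DOX against WT-CTRL. For Ccl3 it was 0.79 in KO-DOX against KO-CTRL and -0.56 in WT-DOX against WT-CTRL. For Il17a it was 0.58 in KO-DOX against KO-CTRL and -1.09 in WT-DOX against WT-CTRL. The folds of Ifng and Tnf stayed below the rule of size in both genotypes, while those of Ccl3 and Il17a passed it in both. Without the highest cells Ccl3 no longer passed in WT-DOX against WT-CTRL. With 1 library a group these differences between genotypes were not tested.

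Barcodes left out of the T cells for having few T cell marker UMIs (2030, median 865 UMIs) held Ccl5 at 1138 CPM, Tnf at 70.8 CPM and Ccl3 at 4.53 CPM, all above the levels in T cells. The Ccl3 value rests on 11 UMIs in 3 barcodes. Tyrobp, a signalling adaptor of natural killer and myeloid cells, was in 29.6% of the 115 Ccl5-positive and 0.470% of the 1915 Ccl5-negative barcodes among them, with median depths of 1597 and 847 UMIs.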

How the results depend on the processing

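No paired analysis was possible because each group is 1 library. At a log2 fold of at least 0.58 the members passing numbered 1 in WT-DOX against WT-CTRL and 2 in KO-DOX against KO-CTRL. They numbered 1 in KO-CTRL against WT-CTRL and 4 in KO-DOX against WT-DOX. With the highest cell of each gene left out they numbered 3, 3, 1 and 5 in that order of comparisons. The share of all genes passing was not counted at either setting, so these counts have no background beside them. Members found in over 1% of T cells of every library numbered 5, and 2 where a positive cell needed 2 UMIs. The log2 fold of Ccl3 in WT-DOX against WT-CTRL was 0.12 with equal weights for coreceptor classes, and in KO-DOX against WT-DOX -0.041 outside CD8 cells without the highest cell. That of Il17a in KO-CTRL against WT-CTRL was -0.64 in CD8 cells and -0.39 there without the highest cell. With median-of-ratios scaling Tnf and Ccl4 also passed in WT-DOX against WT-CTRL, for 6 members, with no share of all genes counted. The cause of these changes was not tested. Of 560 member folds under alternatives, 437 stayed close, 119 moved and 4 reversed. Without the highest cells Ccl3 in WT-DOX against WT-CTRL (-0.39), Ccl3 (-0.24) and Il17a (0.25) in KO-CTRL against WT-CTRL, Ccl4 in KO-DOX against WT-DOX (0.30) and Il4 in KO-DOX against KO-CTRL (0.33) no longer passed. Il2, Il17a, Ccl3 and Csf1 are limited by few positive cells, and mouse-to-mouse spread is unknown. The losses of Ccl5 without the marker gate, of Csf1, Tnf and Ccl3 under equal weights and the gain of Il2 stand beside those members.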
